A study of Mus musculus with 4 samples.

Results

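Annexins are cytosolic proteins that bind acidic phospholipids of membranes when calcium is present, and galectins are small proteins that bind beta-galactosides on glycoproteins and can leave the cell without a signal peptide. The genes described here are Anxa1, Anxa2, Anxa4, Anxa5, Anxa6, Anxa7, Anxa8, Anxa11, Lgals1 and Lgals3, which is 10 of the 32285 genes listed at E13.5, E14.5 and P0 and of the 31053 listed at E15.5. They were found by symbol, and each symbol had the same Ensembl identifier in all 4 tables. In stratified skin several annexins are components of the differentiating layers, annexin A1 is a secreted ligand of formyl peptide receptors, and galectins 1 and 3 act on cell adhesion in stroma and epithelium, respectively.

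Mouse mammary tissue was profiled by single-cell RNA-seq at 3 embryonic stages of the mammary bud (E13.5, then E14.5, then E15.5) and on the day of birth (P0), each as a single library. All animals were wild-type females labelled C57B6, which the methods of the study give as the N substrain, and none of the groups carried an allele or a treatment. Each library pools several animals, so animals cannot be separated within it, and cells positive for CD45, CD31 or Ter119 were excluded at sorting while EpCAM-positive and EpCAM-negative cells were both collected. The P0 tissue was dissociated with other enzyme amounts and with a lysis of red blood cells. Stage cannot therefore be told apart from library, dissociation or dissection.

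The cells described had 5000 or more UMIs (distinct captured transcripts), of which mitochondrial genes took no more than 6%. A cell was called epithelial or mesenchymal by the larger of its summed Epcam, Krt8, Krt18, Krt5 and Krt14 UMIs and its summed Col1a1, Col1a2 and Col3a1 UMIs. This gave 98 epithelial and 135 mesenchymal cells at E13.5, 45 epithelial and 31 mesenchymal cells at E14.5, 532 epithelial and 283 mesenchymal cells at E15.5, and 230 epithelial and 273 mesenchymal cells at P0. Median depth was 16438 to 26725 UMIs per cell before birth and 9973 in epithelium and 8743 in mesenchyme at P0. Of 8 epithelial genes outside the tissue rule, the summed level was 1579 to 3958 CPM (UMIs per 1000000) in epithelium and 5.97 to 130.4 CPM in mesenchyme. For 8 mesenchymal genes it was 2195 to 16083 CPM in mesenchyme and 75.8 to 137 CPM in epithelium, so both tissue labels matched their markers. The tissue rule does not separate mammary epithelium from epidermis. The study removed contaminating skin cells, and its mammary epithelial cells were fewer than the epithelial cells here at each stage. In proportion this gap was by far the largest at E13.5, where most epithelial cells here exceed the study's mammary count. Epithelial levels at E13.5, and ratios of other stages to them, are therefore not those of mammary epithelium alone. No kept cell shared its barcode with a kept cell of another stage.

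All 10 genes are protein coding in the GENCODE annotation of GRCm38. Anxa1 lies at chr19:20373428-20390944 on the minus strand, Anxa2 at chr9:69453620-69491795 on the plus strand, and Lgals3 at chr14:47367751-47386160 on the plus strand. Lgals1 lies at chr15:78926725-78930465 on the plus strand and Anxa6 at chr11:54979108-55033445 on the minus strand. Anxa1, Anxa2, Anxa4, Anxa8 and Anxa11 each overlap a gene on the opposite strand, namely 1500015L24Rik, Gm16144, Gm44036, A630023A22Rik and Anxa11os. RefSeq promoters on GRCm38.p6 were found for 8 of the 10 genes, all but Anxa6 and Lgals1. The 250 bases before the RefSeq start are shown for Anxa1 and Lgals3, whose levels went together over single cells, and for Anxa2. They are written 5′ to 3′ along the gene, and capitals mark TGANTCA (the AP-1 motif) or TATAAA (the TATA box) on either strand.
Anxa1, chr19:20390672-20390921, minus strand: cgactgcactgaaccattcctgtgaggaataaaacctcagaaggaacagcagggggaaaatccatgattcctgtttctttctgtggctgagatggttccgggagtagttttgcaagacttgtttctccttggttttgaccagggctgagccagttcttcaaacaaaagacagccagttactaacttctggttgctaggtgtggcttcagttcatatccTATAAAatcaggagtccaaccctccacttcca
Anxa2, chr9:69453433-69453682, plus strand: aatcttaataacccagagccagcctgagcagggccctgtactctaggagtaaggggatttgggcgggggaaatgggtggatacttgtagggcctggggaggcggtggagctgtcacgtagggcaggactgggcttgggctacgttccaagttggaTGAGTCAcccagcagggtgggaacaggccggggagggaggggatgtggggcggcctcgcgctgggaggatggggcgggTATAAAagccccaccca
Lgals3, chr14:47373610-47373859, plus strand: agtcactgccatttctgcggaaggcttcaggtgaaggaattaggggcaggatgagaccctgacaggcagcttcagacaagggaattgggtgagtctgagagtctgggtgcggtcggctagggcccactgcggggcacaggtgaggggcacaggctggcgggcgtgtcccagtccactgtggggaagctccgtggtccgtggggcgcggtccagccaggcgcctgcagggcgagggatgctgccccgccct
The Anxa1 window held 1 TATAAA whose first base is 32 bases before the start, and no TGANTCA. The Anxa2 window held 1 TGANTCA match, 95 bases before the start, and 1 TATAAA, 17 bases before it. Neither letter run was in the Lgals3 window, and none of the other members' windows held either. Among 32851 promoter windows of the same length, 6.75% held TGANTCA and 12.4% held TATAAA. The G+C content was 46.0% for Anxa1, 62.4% for Anxa2 and 66.0% for Lgals3, beside a median of 52.4% over all windows. The Anxa1 and Lgals3 windows lie inside the GENCODE spans given above, and the Anxa2 window overlaps the edge of its span. The Lgals3 window lies well inside, so its values do not describe the bases before the gene span.

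Anxa1 was an epithelial transcript before birth and was found in both tissues at P0. In epithelium it was at 317 CPM (95% interval 293 to 343) at E13.5, 57.3 (44.9 to 72.1) at E14.5, 389 (378 to 399) at E15.5 and 1367 (1323 to 1413) at P0. In mesenchyme it was at 2.49 CPM (0.914 to 5.42), 1.19 (0.0302 to 6.65), 18.7 (15.7 to 22.2) and 493 (466 to 522) at the same stages. Intervals of levels are exact Poisson intervals, those of shares exact binomial and those of ratios exact conditional binomial. All cover counting error within 1 library and not the spread between animals. Those of levels and ratios treat UMIs as independent, so they also leave out the spread between cells. With no replicate library, no test of any difference was possible.

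Anxa1 was 127 times (58.2 to 348) as high in epithelium as in mesenchyme at E13.5, 48.0 times (8.36 to 1923, from 1 mesenchymal UMI) at E14.5, 20.7 times (17.5 to 24.8) at E15.5 and 2.77 times (2.60 to 2.96) at P0. Between E15.5 and P0 the mesenchymal level differed more than the epithelial level, as it was 26.3 times (22.0 to 31.7) as high at P0, while the epithelial level was 3.52 times (3.37 to 3.67) as high. An Anxa1 UMI was found in 62.6% of mesenchymal cells at P0 and 58.2% after every cell was thinned to 5000 UMIs, against 11.7% and 3.89% at E15.5. The summed epithelial markers were at 3.29% of their epithelial level in P0 mesenchyme, and Anxa1 at 36.1% of its own, a larger share than that of the markers. At E15.5 the corresponding values were 2.97% and 4.82%, and 1 cell held 76 of the 136 mesenchymal Anxa1 UMIs. With tissue called only where 1 sum was at least 5 UMIs and 10 times the other, the E15.5 mesenchymal level was 8.38 CPM (6.38 to 10.8) and the P0 level 474 (447 to 503).

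**Figure D1:**
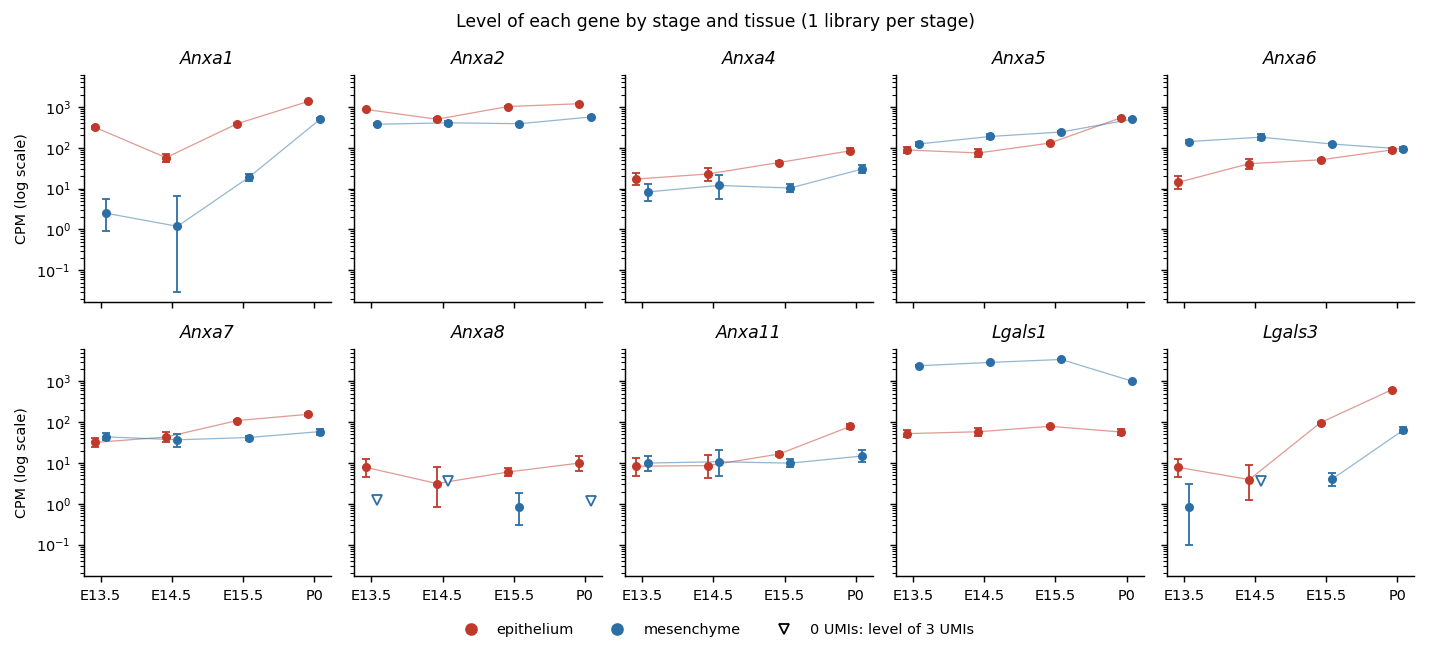
Level of each gene (CPM, log axis) at the 4 stages in epithelium (red) and mesenchyme (blue), with 95% Poisson intervals as bars, lines joining the libraries and open triangles at the level of 3 UMIs where none was found. Mesenchymal Anxa1 lies at 18.7 CPM or less before birth and at 493 CPM at P0, whereas mesenchymal Lgals1 lies between 2400.3 and 3419 CPM before birth and at 1004 CPM at P0.

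Lgals3, the galectin with an N-terminal tail through which it assembles into oligomers, was near the detection limit in the early libraries and high at birth. Its epithelial level was 7.84 CPM (4.48 to 12.7) at E13.5, 3.93 (1.28 to 9.16) at E14.5, 97.2 (92.2 to 102) at E15.5 and 620.0 (590.2 to 651) at P0. In mesenchyme it was at 0.830 CPM from 2 UMIs, at 0 UMIs, at 3.99 CPM (2.68 to 5.74) and at 63.4 CPM (53.9 to 74.1). The epithelial level lay above the mesenchymal level by 24.3 times (16.9 to 36.5) at E15.5 and 9.78 times (8.30 to 11.6) at P0. The E15.5 signal was concentrated in few cells, since the 10% of epithelial cells with most Lgals3 held 92.6% of its UMIs, compared with 46.6% at P0. A UMI was found in 23.9% of epithelial cells at E15.5 (12.2% after thinning) and in 67.4% at P0 (59.6% after thinning). In E15.5 mesenchyme 20 of the 29 Lgals3 UMIs came from 1 cell.

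Lgals1, a galectin that is abundant in stromal cells and binds extracellular matrix glycoproteins, had the reverse distribution. Its mesenchymal level was 2400.3 CPM (2339 to 2463) at E13.5, 2895 (2781 to 3012) at E14.5, 3419 (3376 to 3461) at E15.5 and 1004 (965 to 1044) at P0. The mesenchymal level was 45.8 times (37.8 to 56.0) the epithelial level at E13.5, 49.8 times (39.5 to 63.7) at E14.5, 43.2 times (40.7 to 45.9) at E15.5 and 17.5 times (14.8 to 20.8) at P0. At P0 it was 3.40 times (3.27 to 3.55) lower in mesenchyme than at E15.5. In epithelium Lgals1 stayed within 52.4 to 79.1 CPM over the 4 stages. These epithelial levels were 2.18%, 2.01%, 2.31% and 5.71% of the mesenchymal level from E13.5 to P0, while the summed mesenchymal markers were at 5.49%, 3.61%, 2.02% and 0.602% of theirs. Before birth the share for Lgals1 was thus below or close to that of the mesenchymal markers, and at P0 it was above it. The part of mesenchymal RNA in the epithelial level was not tested.

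Anxa2, which joins S100A10 in a complex at the plasma membrane and on actin, was present in most cells of both tissues. It had a UMI in at least 98.7% of epithelial and 90.4% of mesenchymal cells at each stage (91.1% and 73.3% after thinning). It was at 868, 499, 1019.9 and 1196 CPM in epithelium and at 376, 408, 387 and 566 CPM in mesenchyme from E13.5 to P0. The epithelial level was 2.31 times (2.13 to 2.50) the mesenchymal level at E13.5, 1.22 times (1.07 to 1.40) at E14.5, 2.63 times (2.53 to 2.74) at E15.5 and 2.11 times (1.98 to 2.25) at P0. The 3 mesenchymal levels before birth did not differ beyond their counting error.

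Anxa5, the phosphatidylserine-binding annexin used to stain dying cells, and Anxa6, an annexin with a duplicated core that is linked to endocytosis, were higher in mesenchyme before birth, Anxa5 by over 2-fold at E14.5 alone, and close between the tissues at P0. Anxa5 was at 88.2, 74.6, 129.9 and 541 CPM in epithelium and at 124, 189, 243 and 499.7 CPM in mesenchyme. The mesenchymal level was 1.40 times (1.16 to 1.70) the epithelial level at E13.5, 2.53 times (1.95 to 3.29) at E14.5 and 1.87 times (1.75 to 1.99) at E15.5, whereas at P0 the epithelial level was 1.08 times (1.00 to 1.17) the mesenchymal level. Anxa6 was at 14.2, 40.8, 50.6 and 88.4 CPM in epithelium and at 142, 181, 123 and 92.9 CPM in mesenchyme. Its ratio of mesenchyme to epithelium was 10.0 (6.84 to 15.2) at E13.5, 4.44 (3.22 to 6.21) at E14.5, 2.44 (2.21 to 2.69) at E15.5 and 1.05 (0.873 to 1.27) at P0. Both of its P0 levels were within counting error of each other. The 4 epithelial levels of Anxa6 were in the order of the stages, with E14.5 and E15.5 not apart beyond counting error.

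Anxa4, known from secretory epithelia, and Anxa7, which fuses membranes in secretory cells, were higher in epithelium by the 2-fold limit defined below from E15.5. Anxa4 was at 17.1, 22.8, 43.4 and 84.1 CPM in epithelium and at 8.30, 11.9, 10.3 and 29.9 CPM in mesenchyme. The Anxa4 ratio was 2.06 (1.16 to 3.77) at E13.5, 1.91 (0.904 to 4.39) at E14.5, 4.21 (3.31 to 5.42) at E15.5 and 2.81 (2.16 to 3.71) at P0. With 10 CPM added to both sides, as for that limit, the E13.5 log2 ratio was 0.57. Anxa7 was at 31.8, 43.2, 109 and 156 CPM in epithelium and at 43.6, 37.0, 42.0 and 58.6 CPM in mesenchyme. Its ratio was 0.730 (0.528 to 1.00) at E13.5, 1.17 (0.739 to 1.88) at E14.5, 2.60 (2.30 to 2.95) at E15.5 and 2.66 (2.19 to 3.23) at P0. Anxa11, which binds the calcium sensor PDCD6 and tethers RNA granules to lysosomes, was low in both tissues before birth, with 8.33 to 16.5 CPM in epithelium and 9.92 to 10.7 CPM in mesenchyme. At P0 it was at 78.4 CPM (68.0 to 89.9) in epithelium and at 14.8 CPM (10.4 to 20.3) in mesenchyme, a ratio of 5.31 (3.73 to 7.76).

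Anxa8, an annexin of late endosomes, was rare, with 16, 4, 86 and 26 UMIs over all epithelial cells from E13.5 to P0. Its epithelial level was 7.84, 3.14, 6.02 and 9.94 CPM, and no level was apart beyond counting error from the next lower one. Levels further apart in this order could differ, as P0 was 1.65 times (1.02 to 2.59) E15.5. No Anxa8 UMI was found in mesenchyme at E13.5, E14.5 or P0, where 0 of 135, 0 of 31 and 0 of 273 cells allow shares of up to 2.22%, 9.68% and 1.10% of cells with a UMI, taken as 3 cells of the total. Set against 3 UMIs in the mesenchymal cells together, a floor that does not cover counting error in the epithelial UMIs, the epithelial level was at least 6.29-fold higher at E13.5 and at least 8.31-fold higher at P0. The 6 UMIs in E15.5 mesenchyme all came from 1 cell.

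A member was counted as different between groups when log2 of the ratio, with 10 CPM added to both sides, was at least 1 in size, among genes with at least 10 CPM over both groups. At E13.5, 2 of the 7 members that reached this level were higher in epithelium (Anxa1 and Anxa2) and 2 were lower (Anxa6 and Lgals1), where 6.18% of all genes were higher and 11.4% lower. The median log2 ratio of these members was -0.36, beside -0.10 over all genes. At E14.5, 1 of 7 was higher (Anxa1) and 3 were lower (Anxa5, Anxa6 and Lgals1), beside 9.36% and 12.1% of all genes, with medians of 0.18 and 0.02. At E15.5, 5 of 9 were higher (Anxa1, Anxa2, Anxa4, Anxa7 and Lgals3) and 2 lower (Anxa6 and Lgals1), beside 10.4% and 9.71%, with medians of 1.20 and 0.01. At P0, 6 of 9 were higher, which were the 5 of E15.5 and Anxa11, and Lgals1 was lower, beside 15.1% and 13.2%, with medians of 1.24 and 0.25. Taken relative to the median ratio of all genes at P0, Anxa2 (0.82) and Anxa4 (0.99) fell short of the limit. Anxa8 was under 10 CPM in every comparison, and Anxa11 and Lgals3 were under it at E13.5 and E14.5.

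**Figure D2:**
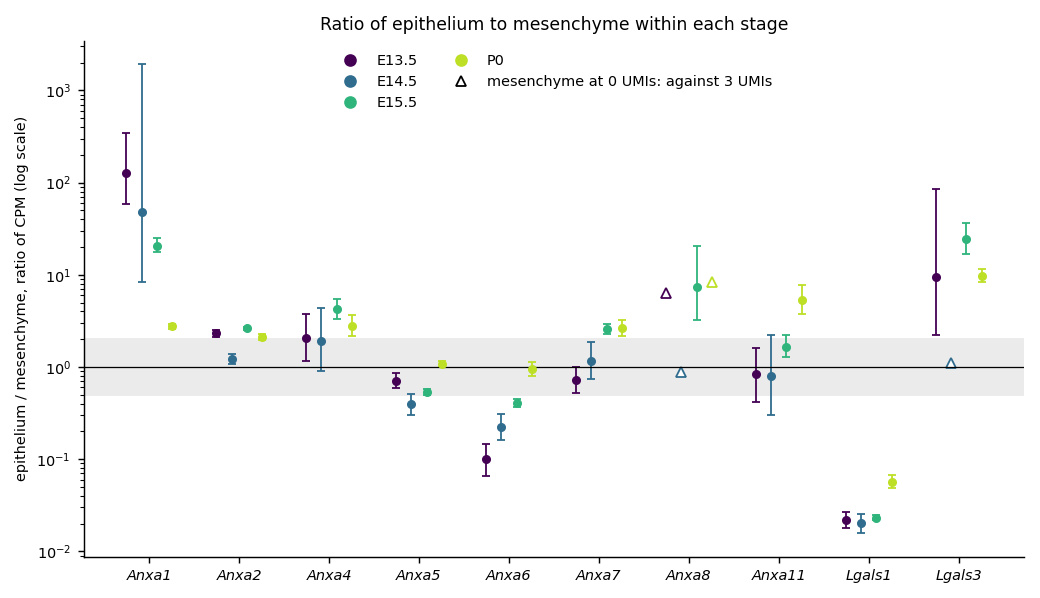
Ratio of the epithelial to the mesenchymal level (CPM, log axis) of each gene at each of the 4 stages, with 95% intervals, a grey band for ratios under 2-fold, and triangles for the ratio to 3 UMIs where mesenchyme had none. Anxa1 goes from 127 to 2.77, Anxa6 from 0.100 to 0.951, and Lgals1 stays at 0.0571 or less at every stage.

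Between E13.5 and E15.5 and between E15.5 and P0, all members past the limit within 1 tissue but Lgals1 were higher in the later library. E14.5 was left out of these comparisons, and epithelial Anxa1 was lower there (57.3 CPM) than at E13.5 (317 CPM). In epithelium 3 of 9 members were higher at E15.5 than at E13.5 and 0 lower, where 8.15% of all genes were higher and 4.12% lower, and the medians were 0.53 for the members and 0.03 for all genes. These were Anxa6 at 3.56 times (2.46 to 5.36), Anxa7 at 3.43 times (2.68 to 4.47) and Lgals3 at 12.4 times (7.61 to 21.8). From E15.5 to P0, 4 of 9 were higher and 0 lower, beside 6.34% and 9.14% of all genes, with medians of 0.82 and -0.13. Besides Anxa1, these were Anxa5 at 4.16 times (3.88 to 4.46), Anxa11 at 4.75 times (3.92 to 5.75) and Lgals3 at 6.38 times (5.93 to 6.85). Epithelium here includes skin cells, and their part in these stage differences was not tested.

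In mesenchyme 1 of 6 members, Anxa1, was higher at E15.5 than at E13.5 and 0 were lower, beside 3.65% and 3.06% of all genes, with medians of 0.27 and -0.10. This Anxa1 log2 ratio went from 1.20 to 0.58 under the strict tissue rule and to 0.79 with the mean of per-cell CPM, both short of the limit. From E15.5 to P0, 3 of 9 were higher (Anxa1, Anxa5 and Lgals3) and 1 lower (Lgals1), beside 9.18% and 15.8%, with medians of 0.53 and -0.32. Anxa5 was 2.06 times (1.91 to 2.22) and Lgals3 15.9 times (10.6 to 24.5) as high at P0. Anxa5 lay at the limit itself (log2 ratio of 1.01). It fell short after thinning (0.99), with the mean of per-cell CPM (0.93) and without cycling cells (0.91), among other settings. Fewer UMIs per cell were available at P0, and the E15.5 counts were made on another gene list, so these stage differences hold between these libraries.

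Ly6d, a lipid-anchored surface protein, split the E15.5 epithelium into 47 cells with at least 3 Ly6d UMIs and 485 with fewer. Lgals3 was at 603 CPM (564 to 643) in the Ly6d cells and 36.8 CPM (33.6 to 40.3) in the others, a ratio of 16.4 (14.6 to 18.3). Anxa1 was at 1133 CPM (1079.8 to 1187) and 299.7 CPM (290.3 to 309), a ratio of 3.78 (3.57 to 4.0). Anxa6 went the other way, with 11.8 CPM in the Ly6d cells and 55.2 CPM in the others, or 4.68 times (2.94 to 7.95) lower, and fell short of the limit with the split at 1 Ly6d UMI (log2 ratio of -0.63). These 3 were past the limit, that is 2 of 9 members higher and 1 lower, where 1.82% of all genes were higher and 4.53% lower, and the medians were 0.34 for the members and -0.18 for all genes. Lgals3 had a UMI in 40 of the 47 Ly6d cells (85.1%, 63.8% after thinning) and in 17.9% of the others (7.22% after thinning). The median depth was 32772 UMIs in the Ly6d cells and 24309 in the others.

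Anxa2 was at 1588 and 952 CPM, a ratio of 1.67 (1.60 to 1.74). Anxa8, under the level tested, was at 18.3 and 4.54 CPM, a ratio of 4.04 (2.48 to 6.44) from 28 and 58 UMIs. Anxa5 was 1.64 times (1.37 to 1.98) and Lgals1 1.43 times (1.15 to 1.81) lower in the Ly6d cells, and Anxa11 did not differ beyond counting error, with a ratio of 0.860 (0.528 to 1.34).

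The Ly6d cells had higher summed markers of skin and, to a lesser extent, of luminal mammary cells. Their summed suprabasal epidermis markers (8 of 8 found) were at 8497 CPM against 1104 CPM in the other cells, and the median cell had 6398 CPM against 364 CPM. The 5 periderm markers were at 1652 and 631 CPM and the luminal mammary markers (9 of 10 found, Wfdc18 at 0) at 2132 and 1490.1 CPM. Of the 47 cells, 46 had at least 5 summed UMIs of the skin genes Krt1, Krt10, Krtdap and Krt77, as had 262 of all 532 epithelial cells. The study places Krtdap in luminal-like mammary cells at E15.5, so this skin limit may also mark mammary cells. It also names Ly6d and Anxa1 as potential early markers of the luminal lineage. By in situ hybridization at E15.5 it found Anxa1 RNA mainly in the inner bud, and Lgals3 likely marking luminal-biased cells. The parts of skin cells and of luminal-like mammary cells in the Ly6d difference were not tested.

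In cells that all passed this skin limit (46 with Ly6d and 216 without), Lgals3 was at 616 and 56.5 CPM, a ratio of 10.9 (9.65 to 12.3). Anxa1 was at 1150.1 and 434 CPM, a ratio of 2.65 (2.50 to 2.82), and Anxa6 was 5.28 times (3.16 to 9.53) lower with Ly6d. Among cells under 3 Ly6d UMIs, the skin limit by itself went with more Lgals3, at 56.5 CPM in 216 cells above it and 15.9 CPM in 269 below it, a ratio of 3.56 (2.85 to 4.50). The same split gave 434 and 157 CPM for Anxa1, a ratio of 2.76 (2.57 to 2.98), and 53.0 and 57.6 CPM for Anxa6, which is within counting error.

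Without the skin-marked cells, the E15.5 epithelium (270 cells) had Lgals3 at 15.8 CPM (12.8 to 19.2) and Anxa1 at 158 CPM (148 to 168). As Krtdap is among the skin genes, this exclusion may also have removed luminal-like mammary cells. Lgals3 was then 3.95 times (2.59 to 6.20) the E15.5 mesenchymal level. This fell short of the 2-fold limit on the scale with 10 CPM added (log2 ratio of 0.88). Lgals3 was 2.01 times (1.18 to 3.66) the level of all 98 E13.5 epithelial cells, of which 8 were skin-marked. With these 8 left out as well, its log2 ratio was 0.46, short of the limit too. Anxa1 was then 2.01 times (1.82 to 2.22) lower than in all 98 E13.5 cells, and lower too without the 8 (log2 ratio of -0.83). This is the opposite direction to the value over all E15.5 epithelial cells, which was 1.22 times (1.13 to 1.33) higher. At E13.5 most Anxa1 UMIs were in 29 cells with Gabrp, described below, and the skin limit left 25 of these in. Their part in this difference was not tested. Anxa6 and Anxa7 stayed 4.07 times (2.78 to 6.16) and 3.08 times (2.38 to 4.05) as high as at E13.5.

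**Figure D3:**
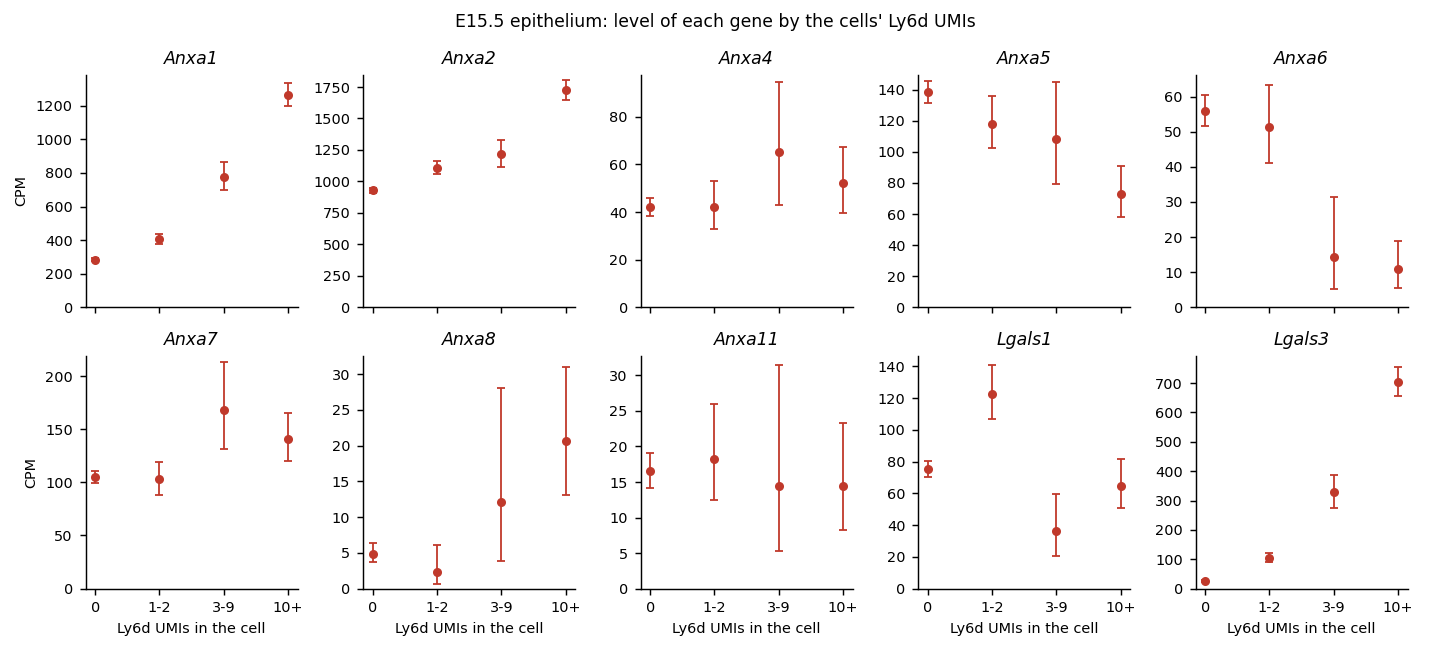
Level of each gene (CPM, linear axis from 0) in E15.5 epithelial cells with 0, 1 to 2, 3 to 9 and 10 or more Ly6d UMIs (434, 51, 14 and 33 cells), with 95% Poisson intervals. Lgals3 goes from 26.3 to 705 CPM over the 4 bins and Anxa6 from 55.8 to 10.8 CPM.

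Over finer bins of Ly6d, with 0, 1 to 2, 3 to 9 and 10 or more UMIs in a cell, Lgals3 was at 26.3, 106, 328 and 705 CPM. Anxa1 was at 283, 407, 778 and 1265 CPM, and the 4 values were in the order of the bins with no overlap of their intervals. Anxa2 was at 928, 1108, 1219 and 1726 CPM, in the same order. Anxa6 was at 55.8, 51.4, 14 and 10.8 CPM and Anxa5 at 138, 118, 108 and 72.9 CPM, both in the reverse order. Lgals1, at 75.4, 123, 36.1 and 64.8 CPM, had no such order. The suprabasal markers were at 864, 2674, 8261 and 8585 CPM in the same bins.

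Over the 532 single cells, Lgals3 and Anxa1 had a Pearson correlation of 0.54 on log2(UMIs per 10000 + 1), and 0.45 after thinning every cell to 5000 UMIs. Lgals3 had a UMI in 35.2% of cells with Anxa1 and in 6.64% of those without it. Lgals3 correlated with Ly6d at 0.62 (0.56 after thinning) and with Krt10, a keratin of suprabasal skin, at 0.57 (0.47). Against Cxcl14, a chemokine of basal mammary cells and of skin, Lgals3 had -0.35 (-0.26) and Anxa1 -0.34 (-0.27). This was not particular to them, as Anxa2 had -0.43 (-0.27), while several members had positive values, up to 0.19 (0.09) for Lgals1. Of cells with Anxa1, 62.0% had a Cxcl14 UMI, compared with 86.7% of those without. These are descriptions over cells of 1 library that share depth and composition, and no test was attached to them.

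**Figure D4:**
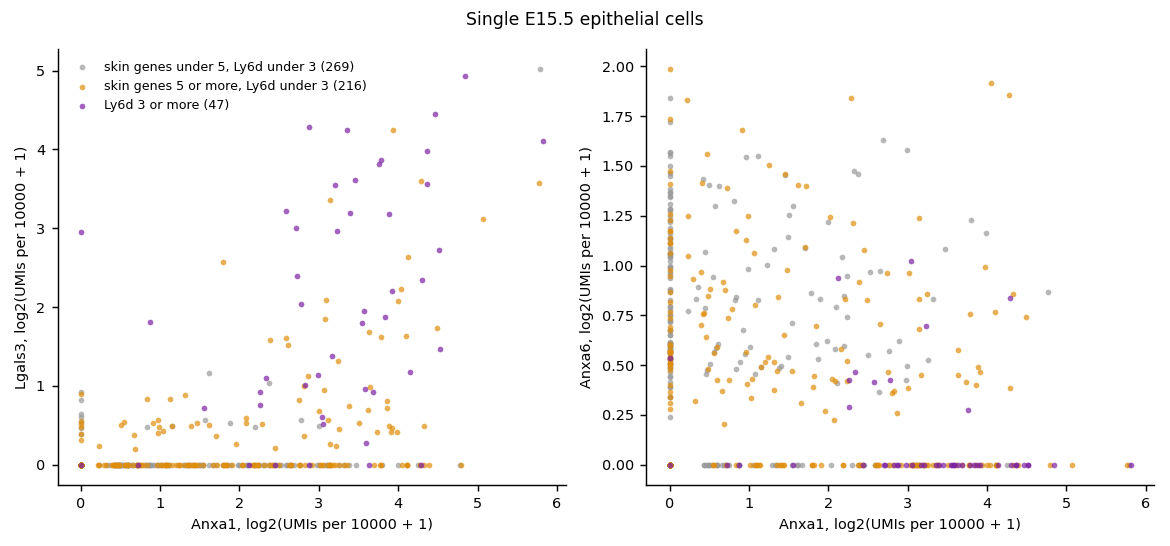
Lgals3 (left) and Anxa6 (right) against Anxa1 in each of 532 E15.5 epithelial cells, as log2(UMIs per 10000 + 1), with cells of at least 3 Ly6d UMIs in purple (47), other cells with at least 5 skin gene UMIs in orange (216) and the rest in grey (269). Cells high for Lgals3 lie mostly to the right, at high Anxa1, with many purple and orange points among them, while many cells with much Anxa1 have no Anxa6 UMI. An Anxa6 UMI was found in 55.8% of cells with an Anxa1 UMI and in 64.9% of those without.

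Of 9269 genes found in at least 10% of these cells, those most like Anxa1 were Krtdap (0.63), Dmkn (0.59), S100a11 (0.58), Perp (0.57) and S100a14 (0.56). Those most like Lgals3 were Fam25c (0.77), Sbsn (0.71), Rab25 (0.70), Krtdap (0.67) and S100a14 (0.67). Krtdap, Dmkn and Sbsn are secreted proteins of differentiating keratinocytes, and S100A11 is a binding partner of annexin A1. For Lgals1 no gene passed 0.27, and its closest gene, Mfap2, had 0.02 after thinning.

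A further split was made after the values were seen, since Anxa8 and Krt8, a keratin of simple epithelia, had a correlation of -0.41 (-0.23 after thinning) in E15.5 epithelium. The split therefore restates that observation in levels, and Krt8 is also 1 of the 5 epithelial genes of the tissue rule. Anxa8 was at 39.3 CPM in the 70 cells without a Krt8 UMI and 1.28 CPM in the other 462, a ratio of 30.7 (17.7 to 56.7) from 70 and 16 UMIs. In cell numbers, 32 of 70 and 10 of 462 cells had an Anxa8 UMI. The cells without Krt8 also had more Anxa1 (945 and 309 CPM) and Lgals3 (292 and 69.5 CPM), less Anxa6 (19.6 and 55.0 CPM), and like Anxa2 (1059.9 and 1014 CPM). Their suprabasal markers were at 6051 CPM, with a median cell at 451 CPM, against 1302 CPM and a median of 391 CPM, and the part of skin cells in this difference was not tested.

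Cells with at least 3 summed Top2a and Mki67 UMIs, which mark the cell cycle from S phase to mitosis, had less Lgals3 and Anxa1. In E15.5 epithelium Lgals3 was at 26.0 CPM in 95 cycling and 121 CPM in 437 other cells, or 4.68 times (3.79 to 5.83) lower, and Anxa1 at 234 and 441 CPM, or 1.88 times (1.75 to 2.03) lower. Lgals1 did not differ beyond counting error there (82.6 and 77.9 CPM) and was 1.04 times (1.01 to 1.07) as high in cycling mesenchyme. The cycling epithelial cells were deeper, with a median of 34311 against 23669 UMIs, and had fewer suprabasal UMIs, at 1012 against 2193 CPM.

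At E13.5 the epithelium was split, after the first results were seen, at 3 UMIs of Gabrp, a subunit of GABA receptors and one of the periderm markers used here. Anxa1 was at 969 CPM in the 29 Gabrp cells and 85.1 CPM in the other 69, a ratio of 11.4 (9.37 to 13.9), so the Gabrp cells held 520 of the 648 Anxa1 UMIs. Among 7 members tested, Anxa1 was the 1 that was higher and Anxa6 and Lgals1 were the 2 lower, beside 6.79% and 6.62% of all genes, with medians of 0.12 and -0.03. Lgals1 was at 20.5 and 63.8 CPM, a log2 ratio of -1.28 that fell short of the limit after thinning (-0.18) and without cycling cells (-0.90). Anxa6 was at 1.86 CPM, from 1 UMI, and 18.6 CPM. Anxa8 was at 0 in the Gabrp cells and 10.6 CPM in the others. The 5 periderm markers were at 3567 and 140.2 CPM and the basal mammary markers at 648 (Myh11 and Cnn1 at 0) and 2467 CPM in the same groups, and their part in the difference was not tested. Since Gabrp is itself on the periderm list, part of the periderm difference was fixed by the split.

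At P0 the epithelium contained 18 cells with at least 10 UMIs of Acta2, the smooth muscle actin of myoepithelial cells. Their basal markers were at 7008 CPM against 87.6 CPM in the other 212. Acta2 is itself on the list of basal markers, so part of this marker difference was fixed by the split. No Lgals3 UMI was found in these 18 cells, which allows a share with a UMI of up to 16.7% (3 cells of the total), while the other cells had 670.1 CPM, at least 43.6-fold higher when set against 3 UMIs in the 18 cells together. Anxa1 was at 164 CPM in the Acta2 cells and 1465 CPM in the others, or 8.94 times (6.32 to 13.1) lower. Lgals1 was at 154 and 49.6 CPM, or 3.1 times (2.00 to 4.65) higher. Together with Anxa11, at 35.8 and 81.9 CPM, these were 1 of 9 members higher and 3 lower, beside 4.78% and 16.7% of all genes, with medians of -0.79 and -0.29. Anxa11 rested on 7 UMIs in the Acta2 cells, lay at the limit itself (log2 ratio of -1.0) and fell short of it with the strict tissue rule (-0.81). Anxa6 was 1.78 times (1.16 to 2.63) higher in the Acta2 cells.

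**Figure D5:**
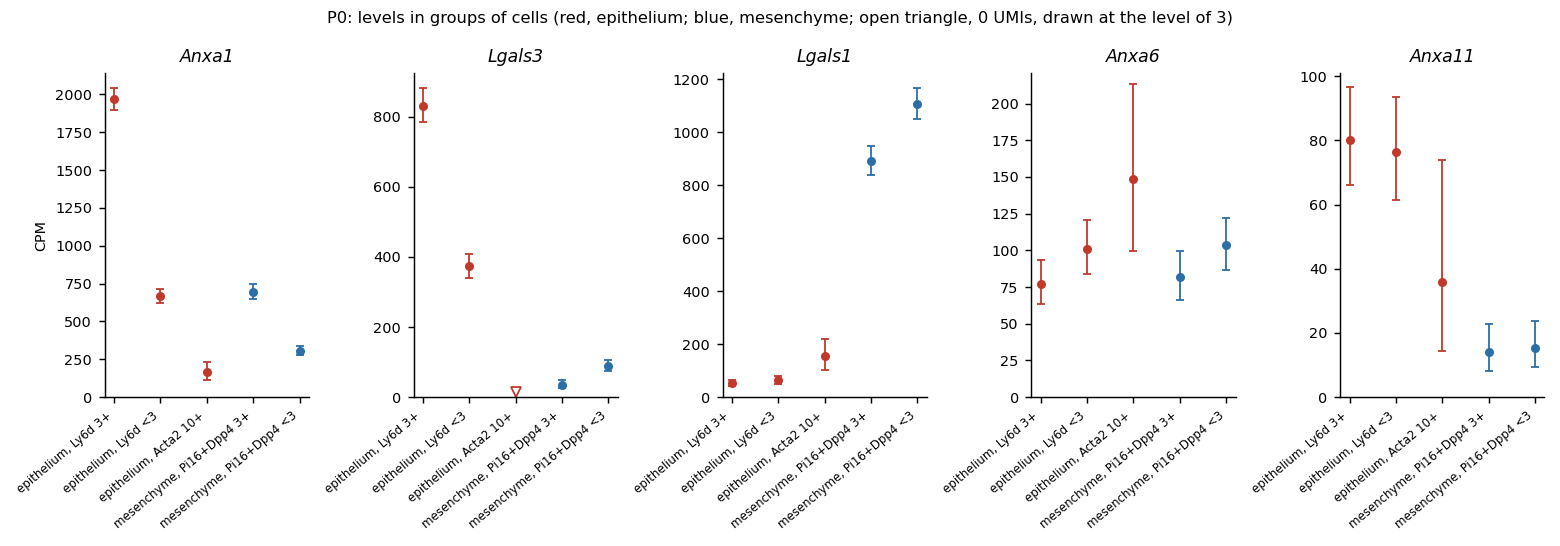
Levels of Anxa1, Lgals3, Lgals1, Anxa6 and Anxa11 (CPM, linear axes from 0) at P0 in epithelial cells (red) with at least 3 or under 3 Ly6d UMIs or with at least 10 Acta2 UMIs, and in mesenchymal cells (blue) with at least 3 or under 3 summed Pi16 and Dpp4 UMIs, with 95% Poisson intervals; the Ly6d and Acta2 groups share cells. Anxa1 is at 1969 CPM with Ly6d, 666 CPM without it and 164 CPM with Acta2.

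The Ly6d split was also made at P0, after the E15.5 values were seen, with 121 cells at or above 3 UMIs and 109 below. Anxa1 was at 1969 and 666 CPM, a ratio of 2.96 (2.73 to 3.20), and Lgals3 at 832 and 373 CPM, a ratio of 2.23 (2.00 to 2.49). These were 2 of 9 members higher and 0 lower, beside 1.19% and 1.53% of all genes, with medians of 0.23 and 0.10. Here 0 of the 230 epithelial cells passed the skin limit. The suprabasal markers were at 276 and 404 CPM (Ivl at 0 in both groups) and the luminal markers at 11422 and 11068 CPM in the Ly6d and other cells. The basal markers were at 90.9 and 1205 CPM. Anxa1 and Lgals3 correlated at 0.58 over the 230 cells (0.55 after thinning).

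Within the 212 P0 cells below the Acta2 limit, 36 had at least 3 summed UMIs of the hormone-sensing genes Prlr, Cited1, Esr1 and Pgr, in a split that was also made afterwards. Lgals1 was at 11.9 CPM in these and 61.8 CPM in the other 176, or 5.20 times (2.44 to 13.2) lower, from 7 UMIs. Anxa11 was 2.45 times (1.58 to 3.97), Anxa6 2.39 times (1.55 to 3.83), Anxa5 1.89 times (1.62 to 2.21), Lgals3 1.81 times (1.58 to 2.08) and Anxa1 1.73 times (1.58 to 1.89) lower. Anxa2 was 1.48 times (1.35 to 1.63) lower, and no share over all genes was computed for this split. Anxa4 differed in the other direction, at 124 and 75.4 CPM, a ratio of 1.64 (1.22 to 2.20).

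In P0 mesenchyme, Pi16 and Dpp4 mark fibroblasts that are shared by many tissues, and 115 cells had at least 3 of their UMIs summed while 158 had fewer. Anxa1 was at 697 and 306 CPM, a ratio of 2.27 (2.02 to 2.57). Lgals3 was at 35.8 and 88.8 CPM, or 2.48 times (1.73 to 3.61) lower. These were 1 of 9 members higher and 1 lower, beside 2.46% and 3.3% of all genes, with medians of -0.11 and -0.0036. Lgals1, at 892 and 1107 CPM, was 1.24 times (1.15 to 1.34) lower, and Anxa2 and Anxa5 did not differ beyond counting error. Markers of blood cells moved with this split: 8 immune genes summed to 9.99 CPM with Pi16 and Dpp4 and 214 CPM without (C1qa at 0 in both), and 4 erythroid genes to 19.1 and 16683 CPM.

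At P0, 3 mesenchymal cells with at least 5 immune UMIs held 35 of the 159 Lgals3 UMIs and 52 of the 1237 Anxa1 UMIs, and 4 cells with at least 50 erythroid UMIs held none of either. Without these cells Lgals3 was at 50.4 CPM (42.0 to 60.1) and Anxa1 at 482 CPM (455 to 510.4) in the other 266. Against E15.5 mesenchyme the ratios were then 12.6 (8.37 to 19.6) and 25.7 (21.5 to 31.0), so both remained past the limit, whereas Lgals3 between the Pi16 and Dpp4 groups had a log2 ratio of -0.70 and did not.

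Other annexins, annexin partners, annexin A1 receptors and other galectins were read as 1 list of 21 genes, of which 19 were listed at E15.5 and 20 at the other stages. Among those with at least 20 UMIs, 2 of 9 were higher in epithelium and 0 lower at E13.5, 4 and 2 of 9 at E14.5, 4 and 0 of 11 at E15.5, and 5 and 2 of 11 at P0. Over all genes the shares higher were 6.18%, 9.36%, 10.4% and 15.1% in the order of the stages, and the shares lower 11.4%, 12.1%, 9.71% and 13.2%. These shares are of genes with at least 10 CPM over both groups, a different minimum from that of the related genes. S100a11 was higher in epithelium at each stage, at 3.49, 2.14, 3.00 and 2.29 times, as was Lgals7, a galectin of stratified epithelium, at 18, 42.6, 16.1 and 42.0 times. S100a10, the partner of annexin A2, stayed between 0.739 and 1.66 times. In the Ly6d cells of E15.5, 3 of 11 were higher and 0 lower, beside 1.82% and 4.53% of all genes, namely Lgals7 at 2.97 times, S100a6 at 2.44 times and S100a11 at 2.11 times. In mesenchyme from E15.5 to P0, 7 of 12 were higher and 1 lower, beside 9.18% and 15.8% of all genes, with Anxa3 at 29.2 times, Lgals9 at 11.6 times and Lgals3bp, a galectin-3 ligand, at 44.2 times as high, and Lgals7 9.42 times lower. The receptors Fpr1, Fpr2 and Fpr3 were near 0, with at most 11 UMIs, of Fpr2 in P0 mesenchyme, in any stage and tissue.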

How the data were processed

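Single-cell RNA-seq libraries of 4 stages were analysed, with 1 library per stage. The authors deposited counts of UMIs per gene and cell barcode, made against the pre-built mm10 reference. By its header the E15.5 file came from Cell Ranger 3.1.0 and the other files from 6.0.0, whereas the submitters' processing notes give 6.0.0 throughout. Every barcode had at least 500 UMIs.

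UMIs were summed over the cells of a group and scaled to CPM. A gene was compared where the pooled level was at least 10 CPM, and a log2 ratio with 10 CPM added to both groups had to reach 1 in size. Since a stage was 1 library, no test, p-value or standard error was computed. Doublets were not called, and the strict tissue rule removed cells with markers of both tissues. Analyses used Python 3.11.15, numpy 2.4.6 and scipy 1.17.1, and scripts were tested on simulated data. Members past the limit are named in each comparison. Related genes were counted where they had at least 20 UMIs in a group, and only some of them are named. Their counts are given for the tissues, the E15.5 Ly6d split and mesenchyme from E15.5 to P0. The genes and lists were chosen with earlier results of these data known. The splits by Ly6d at P0, Gabrp, hormone genes and Krt8, the comparisons within skin-marked cells and the exclusion of immune- and erythroid-marked cells were added after seeing the data.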

Additional observations from a re-analysis of the deposited data

Results flagged for a closer look

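No member was past the 2-fold limit in opposite directions at different stages. Among the related genes, S100a6, a calcium-binding protein, had a log2 ratio of epithelium to mesenchyme of 1.72 at P0 and -1.35 at E14.5. Lgalsl, a galectin-like protein, had 1.46 at P0 and -1.39 at E14.5. Both stand out because the tissue with the higher level was not the same at these stages. The differences between stages were not tested, as each stage is 1 library.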

How the results depend on the processing

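Across the 13 comparisons, 48 ratios of members were past the 2-fold limit, all 48 kept their direction under every alternative run, and 35 stayed past the limit under all of them. Of the 60 ratios tested that were under the limit, 16 changed sign under at least 1 alternative, among them Anxa1 between E13.5 and E15.5 epithelium (0.28, and -0.83 without skin-marked cells) and Anxa4 between the E14.5 tissues (0.58, and -1.02 after thinning). The number of members past the limit moved by more than 1.5 times in 8 recomputations and stayed within it in the other 126. Between the Pi16 and Dpp4 groups at P0 it went from 2 to 1 with a UMI minimum of 10000, with the strict tissue rule, with the split at 1 UMI and without immune- and erythroid-marked cells. Between E13.5 and E15.5 mesenchyme it went from 1 to 0 with every cell thinned to 5000 UMIs, with the mean of per-cell CPM and with the strict tissue rule, and to 2 relative to the median ratio of all genes. The cause of these changes was not tested. Of single ratios, Anxa1 and Anxa2 between the P0 tissues had log2 ratios of 0.87 and 0.93 with a UMI minimum of 10000, and Anxa6 between the E15.5 tissues had -0.87 after thinning. The Ly6d split at E15.5 without skin-marked cells and the Acta2 split with a UMI minimum of 10000 were not run, since a group had under 10 cells. No paired analysis was possible because each stage is 1 library. The E14.5 groups are small (45 and 31 cells), Anxa8 rests on few UMIs, and the spread between animals is unknown.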
